A study of Homo sapiens with 6 samples.

Results

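The clustered replication histone genes of H460 cells were followed in control and fluoxetine-treated cultures. Genes were taken from the count table when their name began with HIST1H, HIST2H, HIST3H or HIST4H, when the name carried no pseudogene suffix, and when the counts of the 6 libraries summed to at least 60. This gave 23 genes, out of 62 such cluster histone genes in the table and 31762 genes in all. The summed count that chose the genes covers both groups, so the levels given here are a description and only the difference between the groups was tested. HIST1H2BE with 88 counts and HIST1H2AE with 60 lay just inside the threshold, and HIST1H4K with 45 and HIST4H4 with 43 lay just outside. The other 39 cluster histone genes had a median of 10 counts over the 6 libraries, and the 23 genes held 97.3% of all cluster histone counts.

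RNA sequencing was done on H460, a human lung large-cell carcinoma line of wild-type genotype per the labels, grown in RPMI-1640 with fetal bovine serum. There were 3 control libraries and 3 libraries of cells given 20 µM fluoxetine, a serotonin reuptake inhibitor, for 24 h, and the study asked how the transcriptome of treated cells differs from that of control cells. All cells were of 1 line, the vehicle of the control was not given in the sources used here, and no label says that the libraries came from separate cultures, so p-values measure the spread between these libraries. The smallest library held 16157507 counts and the largest 27823667. Levels are counts scaled to the library total (CPM, normalized by the TMM method), on which 3 counts come to 0.182 CPM in the shallowest library and 0.108 CPM in the deepest. The keratins KRT8 and KRT18 of epithelial cells stood at means of 1844 and 511.5 CPM in control libraries, while the epithelial adhesion genes EPCAM and CDH1 had 46 and 2 counts over the 6 libraries. Of 11 marker genes of other cell types, 7 had a row and 2 had enough counts to be tested. Together the 7 summed to between 5.15 and 8.02 CPM in each library. Among them, the leukocyte gene PTPRC had 7 counts and the endothelial gene PECAM1 had 1.

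Replication histone genes supply the histones that package newly made DNA. They are transcribed in S phase, and most of their messages end not in a poly(A) tail but in a short stem-loop, which the stem-loop binding protein SLBP holds while the U7 small nuclear ribonucleoprotein directs the cut behind it. Some of these genes can also be read through the stem-loop to a poly(A) signal further downstream, and such polyadenylated messages are known from differentiated and non-dividing cells.

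The stem-loop is shown for 5 of the genes described below, since the annotated messages differ in how far they run past it. Capitals mark its 16 bases, with 5 bases on either side, read from GENCODE 29 transcripts (GRCh38). The sites lie in the 3′ untranslated regions, at chr1:149886183-149886208 on the minus strand for HIST2H2BE, chr6:26225591-26225616 on the plus strand for HIST1H3E, chr6:26124664-26124689 on the plus strand for HIST1H2AC, chr6:26123467-26123492 on the minus strand for HIST1H2BC and chr6:26285126-26285151 on the minus strand for HIST1H4H.
HIST2H2BE: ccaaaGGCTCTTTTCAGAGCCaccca
HIST1H3E: ccaaaGGCTCTTCTCAGAGCCaacca
HIST1H2AC: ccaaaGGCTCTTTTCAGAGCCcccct
HIST1H2BC: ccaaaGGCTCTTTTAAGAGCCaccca
HIST1H4H: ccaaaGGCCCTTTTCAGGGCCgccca
The longest annotated transcript with the stem-loop went on for 1729 bases past it in HIST2H2BE, 1862 in HIST1H3E, 1128 in HIST1H2AC and 1655 in HIST1H4H. In HIST1H2BC it went on for only 116. Those of HIST1H2AC and HIST1H4H are annotated as targets of nonsense-mediated decay, not as protein-coding. The longest protein-coding transcripts of these genes went on for 1114 and 630 bases past the stem-loop. Each of the 4 long transcripts, of HIST2H2BE, HIST1H3E, HIST1H2AC and HIST1H4H, ended 11 to 23 bases after a poly(A) signal, AATAAA. The signal is shown here in capitals with the bases around it. These stretches lie at chr1:149884465-149884494 on the minus strand, chr6:26227440-26227469 on the plus strand, chr6:26139076-26139105 on the plus strand and chr6:26277609-26277637 on the minus strand.
HIST2H2BE: gctattgttattAATAAAgttaccaattaa
HIST1H3E: gttgagatgtaaAATAAAagattactgaac
HIST1H2AC: ctggcatgaggtAATAAAaggtaatgcaaa
HIST1H4H: gaattgtgaaaaAATAAAtgtttaagcca

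The annotated messages of the 23 genes were longer than those of the cluster histone genes that were hardly counted. GENCODE 29 held a model for 22 of the 23 genes, all but HIST2H2BC, a name that RefSeq lists under a transcribed pseudogene. The stem-loop was found in a transcript of 18 of these 22, a transcript ran more than 50 bases past it in 16, and a transcript carried AATAAA in its last 50 bases in 12. Of the 39 genes under the threshold, the corresponding numbers were 13, 9 and 9. The longest transcript had a median of 1390.5 bases among the 22 and 438 bases among the 39. The models of 3 of the 22 genes, HIST1H2BK, HIST1H1C and HIST1H3B, and of 20 of the 39 stop at the coding sequence, so neither stem-loop nor poly(A) signal can be seen in them. Longer models also offer more bases to count reads on, and the part of this in which genes passed the threshold was not tested.

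**Figure D1:**
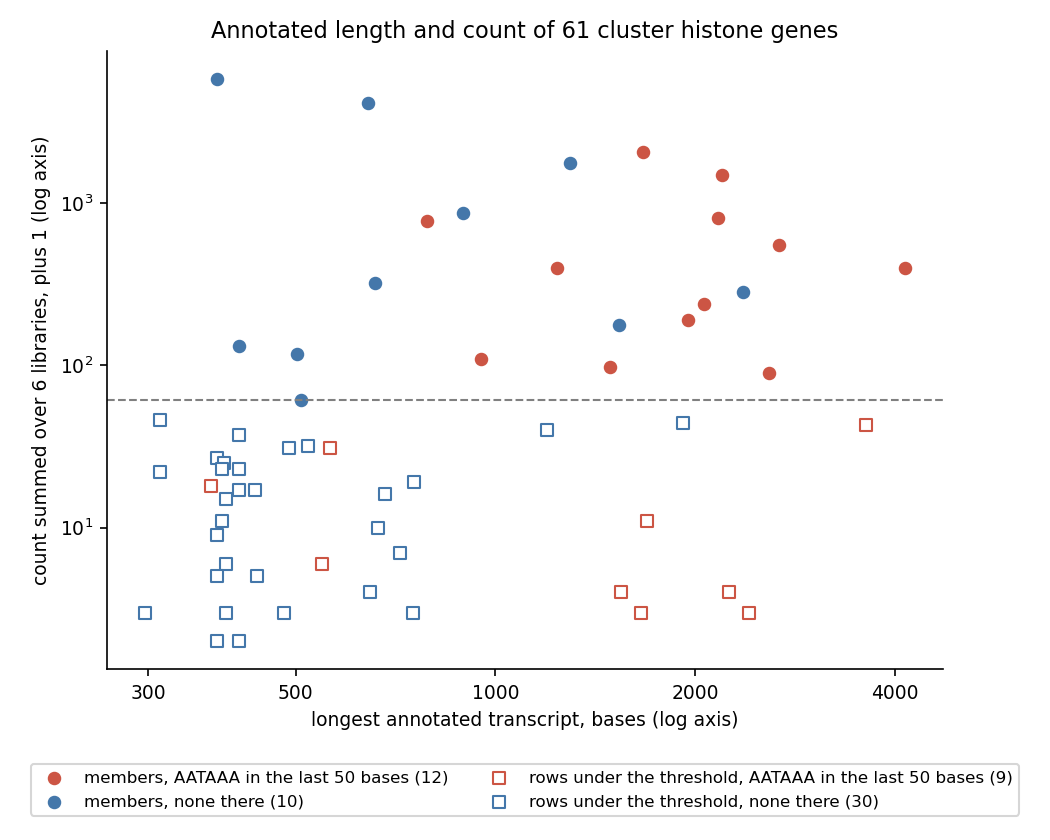
Count summed over the 6 libraries, plus 1, against the longest annotated transcript in bases for 61 cluster histone genes with a GENCODE 29 model, both on log axes. Filled circles are the 22 genes above the dashed threshold and open squares the 39 below it, in red where a transcript has AATAAA in its last 50 bases (12 above, 9 below) and in blue where none has (10 above, 30 below).

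Promoters are shown for HIST2H2BE, which rose, and HIST1H2BK, the most counted gene, because both are H2B genes with the same elements but had log2 fold changes of opposite sign. The windows run from 250 bases before to 50 bases after the RefSeq start (GRCh38.p14), at chr1:149886633-149886932 and chr6:27146809-27147108, both on the minus strand. Capitals mark the octamer ATTTGCAT, which the factor OCT1 binds in H2B promoters, CCAAT, and TATAAA, on either strand.
HIST2H2BE: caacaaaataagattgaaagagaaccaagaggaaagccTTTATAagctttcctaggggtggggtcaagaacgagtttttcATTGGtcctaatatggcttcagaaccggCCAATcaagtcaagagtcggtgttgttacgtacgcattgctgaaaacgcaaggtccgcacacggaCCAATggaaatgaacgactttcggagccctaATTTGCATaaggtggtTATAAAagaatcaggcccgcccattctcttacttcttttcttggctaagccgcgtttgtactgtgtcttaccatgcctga
HIST1H2BK: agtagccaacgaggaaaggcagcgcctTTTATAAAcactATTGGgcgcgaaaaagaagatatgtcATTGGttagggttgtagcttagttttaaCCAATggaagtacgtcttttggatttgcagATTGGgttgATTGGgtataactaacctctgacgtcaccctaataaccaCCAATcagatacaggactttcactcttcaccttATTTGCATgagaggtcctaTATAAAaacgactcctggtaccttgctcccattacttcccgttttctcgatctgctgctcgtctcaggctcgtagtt
In both the octamer began 46 bases before the start. Of 22 genes with a RefSeq promoter, 10 held the octamer, against 1.77% of 35116 promoters of that length. These 10 were 8 of 11 H2B genes and 2 of 4 H2A genes, whose windows reach into the shared promoter of a neighbouring H2B gene, and none of 3 H3, 3 H4 or 1 H1 gene. CCAAT was found in 20 of the 22, against 34.6% of all promoters, and TATAAA in 13, against 11.5%. The elements were not particular to the 22. Of 33 cluster histone genes under the threshold with a RefSeq promoter, 11 held the octamer, 25 held CCAAT and 24 held TATAAA. Among the H2B genes tested, the median log2 fold change was 0.14 for the 8 with the octamer and 0.39 for the 3 without it.

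The 23 genes consisted of 12 of 21 H2B genes, 4 of 12 H2A genes, 3 of 11 H3 genes, 3 of 12 H4 genes and 1 of 6 genes of the linker histone H1. Of these, 18 lie in the HIST1 cluster on chromosome 6, and 3 of HIST2 and 2 of HIST3 lie on chromosome 1. Their levels were very unequal. HIST1H2BK and HIST1H1C alone held 47.4% of the counts of the 23 genes and the 5 most counted genes held 72.7%. Only 5 genes had a mean above 10 CPM over the 6 libraries, 14 lay between 1 and 10, and 4 were at or below 1. In the order of levels, the ranges over the 6 libraries overlapped for 20 of 22 pairs of neighbours. They lay apart only between HIST1H1C and HIST1H2AC and between HIST2H2BE and HIST3H2A. Ranges can overlap although the order holds within each library. HIST1H2BK was above HIST1H1C in each library and HIST1H2AC above HIST1H4I, while the order of HIST1H4I and HIST2H2BE differed between libraries. Per kilobase of annotated exon, HIST1H2BK stood at 127 CPM and HIST1H1C at 53.5, followed by HIST1H4I at 11.3 and HIST1H2AC at 10.6, but the first 2 values are over coding sequence alone.

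**Figure D2:**
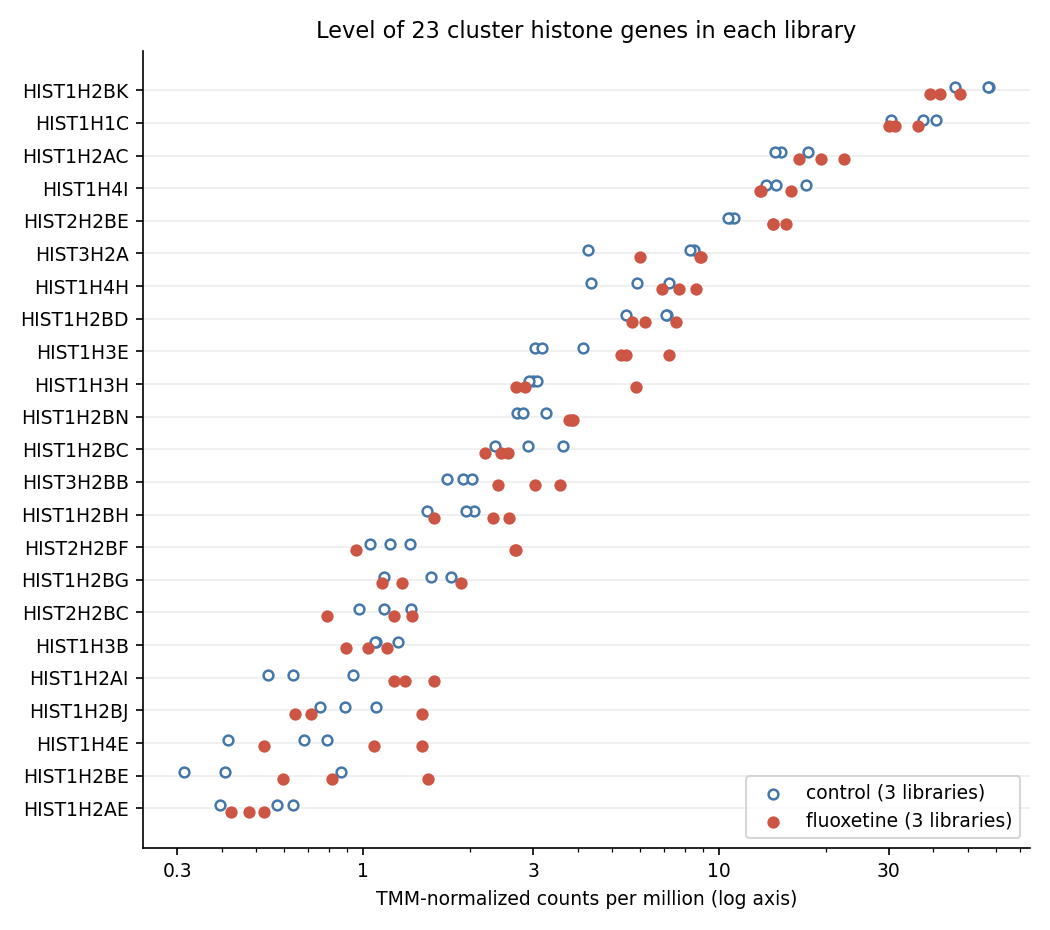
TMM-normalized CPM (log axis) of the 23 genes, from the most to the least counted, with 1 open blue point for each control library and 1 filled red point for each fluoxetine library. HIST2H2BE, HIST1H3E, HIST1H2BN, HIST3H2BB and HIST1H2AI have all 3 fluoxetine libraries to the right of all 3 control libraries.

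Few of the genes were differentially expressed. HIST2H2BE and HIST1H3E were upregulated by fluoxetine and none was downregulated at an adjusted p under 0.05 in edgeR's quasi-likelihood test, in which 22 of the 23 passed the filter on low counts. Over all 15646 genes tested, 7.76% were called higher and 5.32% lower, so 2 of 22 is near the background. At an unadjusted p under 0.05, 7 of the 22 were higher and 1 was lower, while 15.8% and 12.9% of all genes were. None of the 22 was called with a fold change of at least 2 as well, which held for 1.39% of all genes. The groups did not overlap in 5 genes, all higher with fluoxetine, while they did not overlap in 31.9% of all genes, and in 17.5% in that direction. The log2 fold change was above 0 in 14 genes and below 0 in 8, with a median of 0.27 over the 22 and 0.03 over all genes. Without fluoxetine replicate 2 this median was 0.14. Summed over the 23 genes, the level was 191, 179 and 157 CPM in the control libraries and 173, 192 and 167 CPM in the fluoxetine libraries, so the groups overlapped. In RNA from whole cultures, a change in the share of cells in S phase and a change in histone message per cell cannot be told apart.

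**Figure D3:**
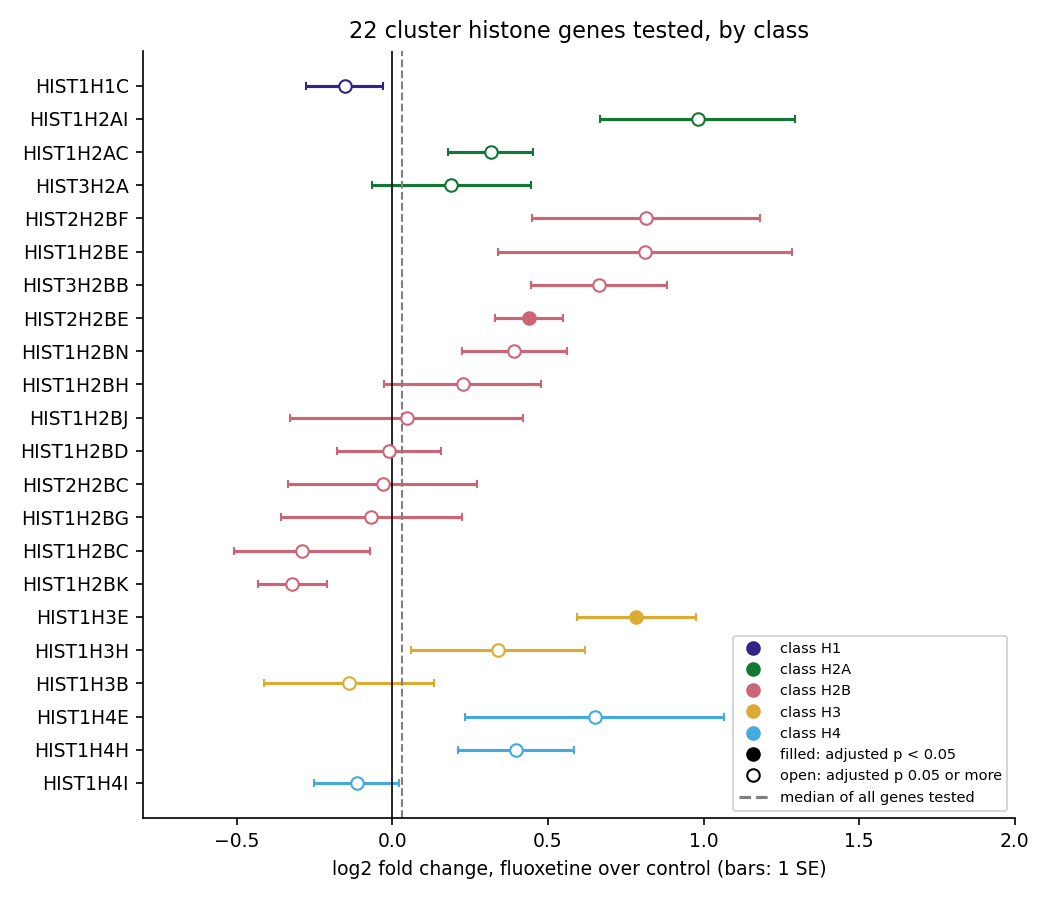
Log2 fold change of fluoxetine over control with 1 SE (edgeR) for the 22 genes tested, grouped and coloured by histone class. Filled points, HIST2H2BE and HIST1H3E, have an adjusted p under 0.05, and the dashed line is the median of all genes tested.

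The most counted H2B gene was not called and the second was called higher. H2B pairs with H2A in the dimers that flank the tetramer of H3 and H4 in the nucleosome. The most counted H2B gene here was HIST1H2BK (ENSG00000197903, chr6:27146418-27146798), at 57.6, 57.2 and 46.2 CPM in control libraries and 41.9, 47.5 and 39.2 in fluoxetine libraries. One fluoxetine library lay above the lowest control library, so the groups overlapped. The log2 fold change was -0.32 ± 0.11 (SE, edgeR adjusted p = 0.0862), just short of the threshold. The call depended on which libraries entered, since the adjusted p was 0.00608 without control replicate 3 and 0.0413 without fluoxetine replicate 2.

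HIST2H2BE (ENSG00000184678, chr1:149884459-149886652), a gene outside the large cluster that is also known to give polyadenylated messages, was higher with fluoxetine. It had 10.7, 11.0 and 10.6 CPM in control libraries and 14.2, 14.2 and 15.4 in fluoxetine libraries, so every treated library was above every control library. The log2 fold change was 0.44 ± 0.11 (SE, edgeR adjusted p = 0.0260). The call was lost without control replicate 1 (edgeR adjusted p = 0.106), control replicate 2 (0.105), fluoxetine replicate 1 (0.117) or fluoxetine replicate 3 (0.130), and the fold change then stayed between 0.37 and 0.43. Of its 100-base windows, 2.63% are identical to a stretch of another cluster histone gene, so a small part of its reads could be counted elsewhere or not at all. As a ratio chosen after the values were seen, HIST2H2BE had 0.187, 0.193 and 0.229 of the counts of HIST1H2BK in control libraries and 0.339, 0.299 and 0.393 in fluoxetine libraries. The ratio was higher in all 3 treated libraries.

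The other H2B genes were counted less. HIST1H2BD, also known for polyadenylated messages, had 7.12, 7.09 and 5.48 CPM in control and 6.19, 7.55 and 5.71 in fluoxetine libraries, with a log2 fold change of -0.01 ± 0.17. HIST1H2BN had 3.27, 2.71 and 2.81 CPM against 3.89, 3.87 and 3.78, and HIST3H2BB had 1.90, 1.72 and 2.02 against 3.58, 3.03 and 2.39. Neither gene's groups overlapped, but edgeR's adjusted p was 0.158 for HIST1H2BN and 0.0708 for HIST3H2BB, with log2 fold changes of 0.39 and 0.66. HIST1H2BN is annotated over 28.0 kb that also hold HIST1H2AL, with 14 counts. HIST2H2BF had 44, 16 and 46 counts in the fluoxetine libraries and 23, 26 and 33 in the control libraries. Its replicate 2 lay below all controls and the others above them, and without that library edgeR's adjusted p went from 0.171 to 0.0201. HIST2H2BF also shares 12.8% of its 100-base windows with other cluster histone genes. HIST1H2BC, HIST1H2BH, HIST1H2BG, HIST2H2BC, HIST1H2BJ and HIST1H2BE had log2 fold changes from -0.29 to 0.81, and none was called.

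Summed over the 12 H2B genes, the level was 85.9 ± 7.98 CPM in control and 82.0 ± 3.64 in fluoxetine libraries (SD, n = 3 each), and the groups overlapped. HIST1H2BK made up 62.3% ± 1.86 of the H2B counts in control and 52.2% ± 2.93 in fluoxetine libraries. The 11 other H2B genes together had 33.7, 32.6 and 30.5 CPM in control libraries and 40.3, 37.9 and 39.0 in fluoxetine libraries. These sums did not overlap, although HIST1H2BK was set aside after its values were seen.

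**Figure D4:**
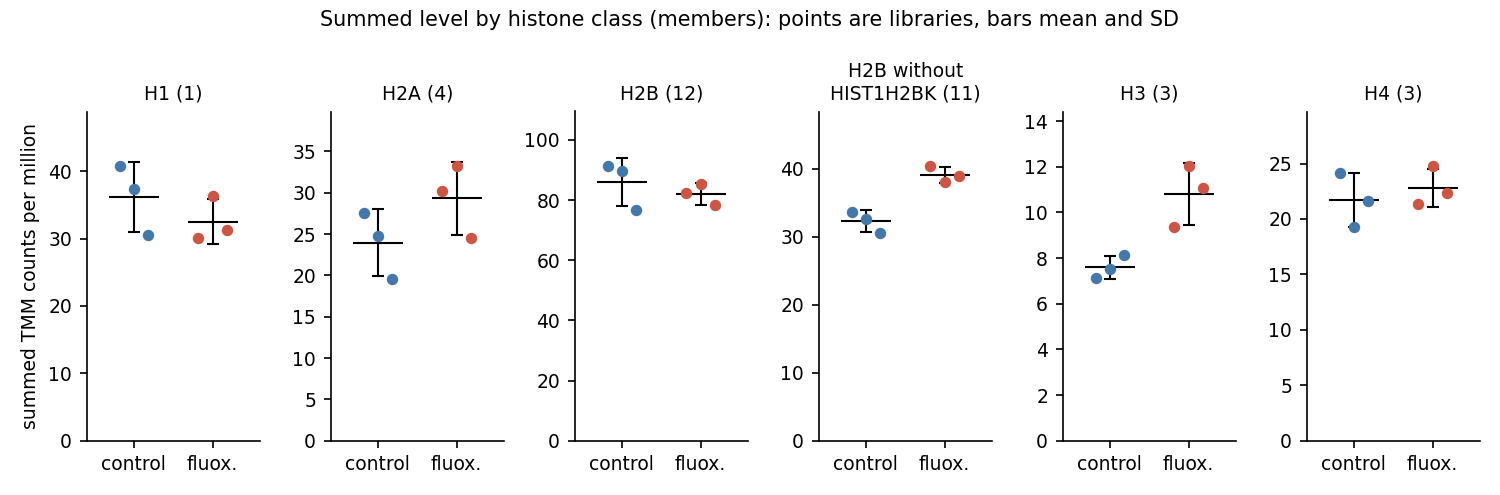
TMM-normalized CPM summed over the genes of each histone class (number of genes in brackets), with 1 point per library and black bars for the mean and SD of 3 libraries, each axis from 0. The control and fluoxetine points overlap for H1, H2A, H2B and H4, and lie apart for H3 and for the 11 H2B genes other than HIST1H2BK.

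H2A, the partner of H2B, was represented by 4 genes, none of which was called. HIST1H2AC (ENSG00000180573, chr6:26124145-26139116), known for polyadenylated messages, had 17.8, 14.95 and 14.3 CPM in control and 19.4, 22.5 and 16.8 in fluoxetine libraries. One treated library lay below the highest control library, and the log2 fold change was 0.32 ± 0.14 (SE, edgeR adjusted p = 0.157). HIST3H2A was low in replicate 3 of both groups, with 8.48, 8.28 and 4.29 CPM in control and 8.86, 8.92 and 6.00 in fluoxetine libraries, and its log2 fold change of 0.19 ± 0.26 was within that spread. HIST1H2AI had 0.635, 0.938 and 0.540 CPM against 1.58, 1.31 and 1.22, with no overlap and a log2 fold change of 0.98 ± 0.31 (edgeR adjusted p = 0.0646). The value of HIST1H2AI is uncertain because 57.7% of its 100-base windows are identical to other cluster histone genes. HIST1H2AE had 7 to 14 counts per library, did not pass the filter and was not tested. Summed over the 4 genes, H2A stood at 24.0 ± 4.07 CPM in control and 29.3 ± 4.41 in fluoxetine libraries (SD, n = 3 each), with overlap.

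Several H2A and H2B genes are transcribed head to head from a shared promoter, and for 3 such pairs both genes were among the 23. HIST1H2AC and HIST1H2BC start 219 bases apart. HIST1H2AC had 6.14, 4.10 and 6.12 times the counts of HIST1H2BC in control and 7.60, 10.2 and 6.86 times in fluoxetine libraries, so the ratio was higher in all 3 treated libraries. The exact two-sided permutation test gave p = 0.1, the smallest that 3 against 3 libraries allow, and 0.3 after adjustment over the 3 pairs. HIST3H2BB over HIST3H2A was 0.301 ± 0.147 in control and 0.381 ± 0.0354 in fluoxetine libraries (SD, n = 3 each, exact permutation p = 0.4, adjusted 0.6). HIST1H2AE over HIST1H2BG was 0.372 ± 0.123 and 0.352 ± 0.109 (exact permutation p = 0.9, adjusted 0.9). The pairs were also uneven in level. HIST1H2BK had 5811 counts over the 6 libraries and its partner HIST1H2AH had 10, and HIST2H2BE had 1481 where its partner HIST2H2AC had 24.

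H3 and H4 form the tetramer at the centre of the nucleosome. HIST1H3E (ENSG00000274750, chr6:26224199-26227473) had 3.04, 3.18 and 4.14 CPM in control libraries and 5.46, 5.29 and 7.22 in fluoxetine libraries. All treated libraries were above all controls, and the log2 fold change of 0.78 ± 0.19 (SE, edgeR adjusted p = 0.0235) was the higher of both called changes. The same libraries decided this call. Without control replicate 1 edgeR's adjusted p was 0.0962, without control replicate 2 it was 0.108, without fluoxetine replicate 1 it was 0.0757 and without fluoxetine replicate 3 it was 0.109, and the log2 fold change lay between 0.61 and 0.82 in these 4 fits. HIST1H3H stood at 2.99, 3.07 and 2.92 CPM in control and 2.85, 5.83 and 2.68 in fluoxetine libraries, so only replicate 2 of the treated group was high. HIST1H3B had a log2 fold change of -0.14 ± 0.27. Summed, the 3 H3 genes gave 7.12, 7.50 and 8.14 CPM in control and 9.35, 12.0 and 11.1 CPM in fluoxetine libraries, without overlap.

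Among the H4 genes, HIST1H4I had 17.6, 14.5 and 13.6 CPM in control and 13.0, 15.9 and 13.2 in fluoxetine libraries, with a log2 fold change of -0.11 ± 0.14. HIST1H4H had 5.90, 4.38 and 7.24 CPM against 6.92, 7.73 and 8.62, with a log2 fold change of 0.40 ± 0.19 (SE, edgeR adjusted p = 0.194). HIST1H4E lay between 0.417 and 1.46 CPM. The groups overlapped for each of the 3 genes and for their sum, which was 21.7 ± 2.43 CPM in control and 22.8 ± 1.74 in fluoxetine libraries (SD, n = 3 each). The single H1 gene, HIST1H1C (ENSG00000187837, chr6:26055787-26056428), encodes a linker histone that binds where DNA enters and leaves the nucleosome. It had 40.7, 37.4 and 30.5 CPM in control and 30.1, 36.3 and 31.2 in fluoxetine libraries, and its log2 fold change was -0.15 ± 0.12 (SE, edgeR adjusted p = 0.471). HIST1H2BK and HIST1H1C together held 51.1% ± 1.99 of the histone counts in control and 42.5% ± 1.13 in fluoxetine libraries (SD, n = 3 each). The 21 other genes summed to 92.5, 84.1 and 79.8 CPM in control and 101, 108 and 96.8 CPM in fluoxetine libraries, which did not overlap, a grouping also made after the values were seen.

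The genes could also be divided by the end of the annotated message, a feature that the counts did not choose but that was looked at with the fold changes known. Of the 12 genes with AATAAA in the last 50 bases of a transcript, 11 had a log2 fold change above 0 and 1 below, the median was 0.39, and both called genes were among them. Their levels summed to 56.2, 50.9 and 53.1 CPM in control and 67.6, 72.6 and 67.4 CPM in fluoxetine libraries, without overlap. In HIST2H2BF, HIST1H2BN and HIST1H2BJ only a transcript without the stem-loop carried AATAAA there. Counts per gene do not tell which transcript was present. Of the 9 tested genes without AATAAA there, 3 were above 0 and 6 below, with a median of -0.11. Among those below 0 were all 3 genes whose models stop at the coding sequence (-0.32 to -0.14). In these models AATAAA cannot be seen, so their place in this division is uncertain. The 10 genes without it, which include the 3 whose models stop at the coding sequence, summed to 133, 127 and 102 CPM in control and 105, 118 and 98.6 CPM in fluoxetine libraries, with overlap. With HIST1H2BK and HIST1H1C left out, a choice made after the values were seen, the other 8 summed to 30.9 ± 4.69 CPM in control and 31.7 ± 3.06 in fluoxetine libraries (SD, n = 3 each), which was within the spread. The annotation and general knowledge do not divide the genes alike. The 5 genes known to give polyadenylated messages were HIST1H1C, HIST1H2AC, HIST1H2BD, HIST1H2BK and HIST2H2BE. Their median log2 fold change was -0.01, and they summed to 123 ± 14.0 CPM in control and 116 ± 10.5 in fluoxetine libraries. Of these genes, 3 also carry AATAAA at the annotated end. The models of HIST1H2BK and HIST1H1C stop at the coding sequence, so a signal cannot be seen in them.

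How the libraries captured messages without a poly(A) tail bears on every level above, and whether poly(A) RNA was selected is not given in the sources used here. Of 25 RNAs known to lack a tail, 11 had a row, and only RN7SL2, the RNA of the signal recognition particle, passed the filter. RN7SL2 had 1.95, 0.573 and 0.504 CPM in control and 0.364, 0.773 and 0.524 CPM in fluoxetine libraries. The other 10 had at most 50 counts over the 6 libraries, as for RNU5A-1. Among near-identical gene copies in the clusters, where reads may be split or dropped, 5 of 7 had a row, with 2 to 16 counts over the 6 libraries, and the testis histones HIST1H1T and HIST3H3 had 6 and 2 counts.

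Among genes that act on histone genes and their messages, each one that passed the test was lower with fluoxetine. Of 12 genes of histone gene transcription and its cell cycle input, 3 were downregulated and none upregulated, against 5.32% and 7.76% of all genes. These were CDK2, the kinase that switches on histone transcription with cyclin E, at a log2 fold change of -0.54, the S phase transcription factor E2F1 at -0.52 and CDK1 at -0.45 (edgeR adjusted p = 0.00363, 0.00640 and 0.00185). CDK2 had 40.7, 41.9 and 41.8 CPM in control and 26.9, 29.2 and 29.7 CPM in fluoxetine libraries, with no overlap. The factors dedicated to histone loci differed less. NPAT, the coactivator of the histone locus body, had a log2 fold change of 0.10 ± 0.13, CASP8AP2 0.05 ± 0.14 and HINFP, the H4 promoter factor, 0.22 ± 0.13, and none was called. The cyclin E genes CCNE1 and CCNE2 had log2 fold changes of -0.32 and -0.17, neither called.

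In 3′ end processing, all 19 genes tested had a log2 fold change below 0, while 45.8% of all genes did. Of the 19, 7 were called lower and 0 higher, against 5.32% and 7.76% of all genes. SLBP had 96.0, 89.7 and 91.2 CPM in control and 75.3, 76.5 and 71.3 CPM in fluoxetine libraries. All treated libraries were below all controls, and SLBP fell by a log2 fold change of -0.31 ± 0.07 (SE, edgeR adjusted p = 0.0209), a call that was lost without fluoxetine replicate 1 (adjusted p = 0.0905) or fluoxetine replicate 3 (0.0970). The cap-associated factor SRRT was at -0.58, the cleavage factor subunit CSTF2 at -0.43, and the Sm proteins SNRPE, SNRPF, SNRPG and SNRPD3 lay between -0.45 and -0.37, all called. The proteins particular to the U7 particle had log2 fold changes of -0.25 for LSM10, -0.17 for LSM11 and -0.14 for ZNF473, none called. Of 12 genes of histone message translation and decay, 1 was called lower and 0 higher, which is near the 5.32% and 7.76% of all genes. The gene called was LSM1, a decapping activator (log2 fold change -0.41, edgeR adjusted p = 0.0473). ERI1, the exonuclease that trims the stem-loop, had -0.04 ± 0.10.

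**Figure D5:**
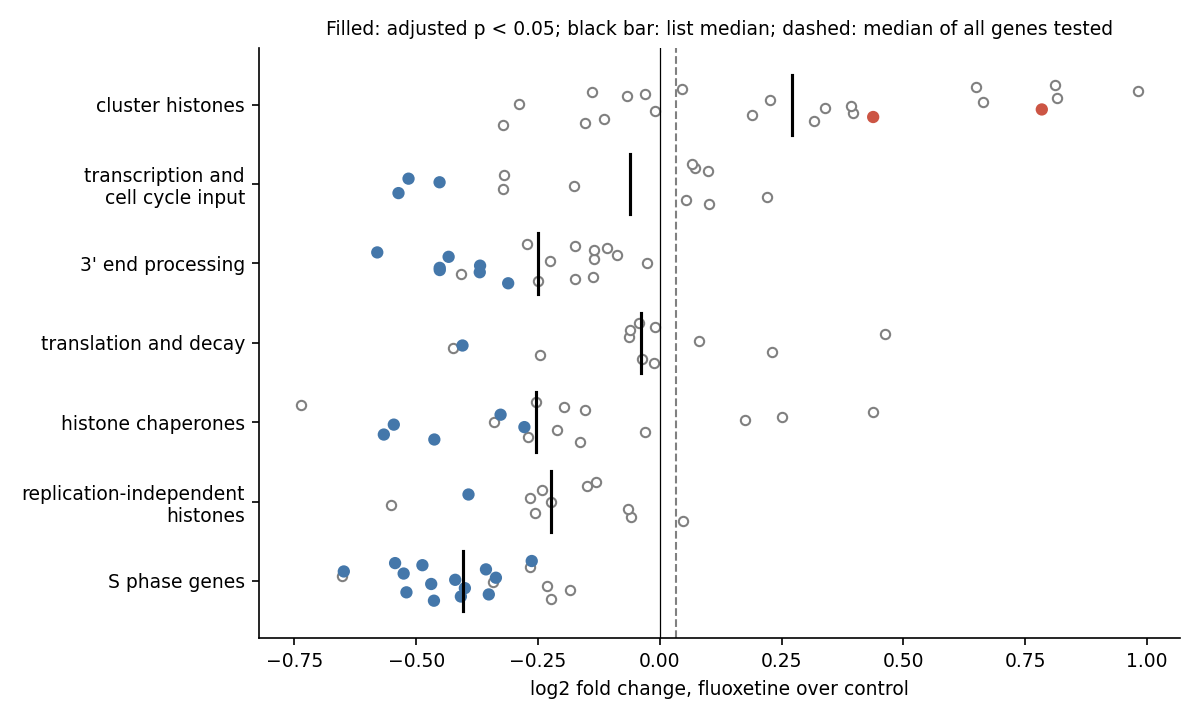
Log2 fold change of fluoxetine over control for each tested gene of the cluster histones and of 6 lists of related genes, with red and blue points for genes called higher and lower (edgeR adjusted p under 0.05), black bars for list medians and a dashed line for the median of all genes. The cluster histone median is 0.27 and the S phase median -0.40.

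Histone chaperones take up new histones and hand them to DNA. Of 17 tested, 5 were downregulated and 0 upregulated, against 5.32% and 7.76% of all genes, with a median log2 fold change of -0.25. NASP, which stores H3 and H4, was at -0.55, CHAF1B, of the complex that deposits them at replication forks, at -0.57, ASF1B at -0.46, DAXX at -0.33 and HAT1 at -0.28, while CHAF1A was at -0.27 and not called (edgeR adjusted p = 0.0732). Many histone variants made outside the clusters are expressed through the cell cycle. Of 11 tested, 10 were below 0 and the median was -0.22. Only H2AFZ was called lower, and 1 of 11 is near the 5.32% of all genes. H2AFZ had 218, 207 and 206 CPM in control and 151, 185 and 145 CPM in fluoxetine libraries (log2 fold change -0.39 ± 0.09, edgeR adjusted p = 0.0220). H2AFX, the damage-marking variant, had -0.55 ± 0.22 and was not called (edgeR adjusted p = 0.121). H3F3A and H3F3B, which encode H3.3, had -0.24 and -0.15, and the linker histone H1F0 had 0.05, none called.

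Most S phase genes fell. All 20 tested had a log2 fold change below 0, and the median was -0.40. Of the 20, 14 were called lower and 0 higher, against 5.32% and 7.76% of all genes. Those with the smallest p-values were UHRF1, which recruits the maintenance DNA methyltransferase, with a log2 fold change of -0.54, the replicative helicase subunits CDC45 with -0.53 and GINS2 with -0.65, and the ribonucleotide reductase subunit RRM2 with -0.47. Beside these, the cluster histones had 14 of 22 above 0, 2 called higher and 0 lower. The difference between the lists was not tested. Across the 6 lists of related genes 31 were called, all lower, and each kept a log2 fold change below 0 with any 1 library left out. Of the 31, 16 lost their call without fluoxetine replicate 1, 11 without fluoxetine replicate 3, 9 without control replicate 2, 5 without control replicate 1 and 0 without control replicate 3 or fluoxetine replicate 2. H2AFZ and LSM1 were among those lost without fluoxetine replicate 1, fluoxetine replicate 3 or control replicate 2, and LSM1 also without control replicate 1. CDK2, E2F1, CDK1, SRRT, CSTF2, NASP and CHAF1B were called each time. The share of all genes called lower moved as well, from 5.32% to 1.01% without fluoxetine replicate 1 and 2.01% without fluoxetine replicate 3. It was 2.75% without control replicate 2 and 3.48% without control replicate 1. Without control replicate 3 it was 12.7%, and without fluoxetine replicate 2 it was 6.96%.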

How the data were processed

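RNA was sequenced from 3 control and 3 fluoxetine-treated H460 libraries. The authors deposited raw read counts per gene, and their processing notes name fastp 0.20.0, HISAT2 2.1.0, HTSeq 0.10.0 and DESeq2 1.18.1. Genome build, annotation and strand setting are not given in the sources used here. The deposited log2 fold changes and p-values of the authors' own comparison were not used. Counts were tested with edgeR 4.0.16 (R 4.3.3) by its quasi-likelihood test, with TMM normalization, filterByExpr and Benjamini-Hochberg adjustment over 15646 genes. Levels are TMM-normalized CPM, and called means an adjusted p under 0.05. The script was tested on simulated data. Gene positions and transcripts came from GENCODE 29 (GRCh38), which gives 22 of the 23 genes at the deposited coordinates, and promoters from RefSeq, matched by gene ID for 22. A stem-loop had to fit the 16-base histone consensus with a paired stem. Genes named with values were the 4 most counted of each class, called genes, those without overlap between groups, those at the threshold, genes with known polyadenylated messages, a fixed set of partners and the smallest p-values of other lists. The genes and lists were chosen with earlier results of these data known. Alternatives were DESeq2 1.42.0, limma-voom 3.58.1, other scalings and filters, thinning to 16157507 counts, removal of GC and length trends, a replicate block and leaving out each library.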

Additional observations from a re-analysis of the deposited data

How the results depend on the processing

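The main counts were 2 cluster histone genes called higher and 0 lower (edgeR). At an unadjusted p under 0.05 these were 7 and 1. The number called higher was 1 without a filter on low counts (4.39% of all genes), 1 after thinning to equal depth (7.55%), 5 once trends with GC content and length were taken out, where 10.2% of all genes were called higher and 14.0% lower, and 0 under the added rule of a fold change of at least 2. The number called lower was 1 with DESeq2, 1 without a filter (4.77% of all genes) and 1 once those trends were taken out. It was HIST1H2BK in each case. DESeq2 called 1177 genes lower among 31762 with a p-value. Some of these got no adjusted p, HIST2H2BC among them, so a share of all genes is not given for DESeq2. With 1 library left out, 0 to 3 genes were called higher and 0 to 1 lower. Over all genes, 2.53% to 10.3% were called higher and 1.01% to 12.7% lower in these fits. Between 12 and 17 of the histone genes had a log2 fold change above 0, and their median log2 fold change lay between 0.14 and 0.31. Of these, the value without fluoxetine replicate 2 was 0.14, below the main 0.27 by more than the spread between replicates. The rule of a fold change of at least 2 is stricter by construction, and the causes of the other differences were not tested. Over 328 pairs of a gene and an alternative, 302 kept the sign or stayed without a call as in the main result, 10 lost a call and 16 gained one, in 6 genes, and 0 called values changed sign. Of the 22 genes, 6 that were never called changed sign in at least 1 alternative. The summed level of H2B had a log2 ratio of -0.07, and of -0.18 without control replicate 3. Chosen after seeing the data, leaving out HIST1H2BK took it to 0.28, and leaving out HIST1H2BK and HIST1H1C took the sum over all 23 genes from 0.02 to 0.26.

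Control and fluoxetine libraries share replicate numbers. Deviations from the group means correlated across genes at 0.03, 0.12 and 0.39 for libraries of the same number. For libraries of different number the correlations ran from -0.38 to 0.32, the highest being fluoxetine library 2 with control library 1. Whether libraries of the same number were paired cannot be told from these values. With the replicate block, 7 cluster histone genes were called higher and 1 lower, while 14.3% and 11.4% of all genes were, against 7.76% and 5.32% without it. The genes at or below 1 CPM rest on few counts per library, and changes in them were not detectable at this depth unless large.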
